A study of Mus musculus with 12 samples.

Results

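The genes described here are 33 genes of glycolysis and of the response to low oxygen, read by poly(A) RNA sequencing in cultured synoviocytes of mice, the fibroblasts that line the joint. They were taken by name from the deposited count table, which lists 36875 gene symbols, and all 33 were found and passed the expression filter that left 15049 genes for testing. Of these, 21 are glycolytic enzymes, the enzymes that set the level of their regulator fructose 2,6-bisphosphate, and the transporters of glucose and lactate. The other 12 are hypoxia-inducible factors (HIFs), the hydroxylases that act on them, and genes known as HIF targets outside glycolysis.

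The 12 libraries fall into 3 groups of 4. For the homeostasis group, described as WT, the mice drank water with 5% sucrose over 3 weeks. For inflammation (DOX ON), 1 mg/ml doxycycline was added to that drink over the 3 weeks. For resolution (DOX OFF), doxycycline was stopped after the same course. A single protocol text covers all samples and speaks of a TNF-induced inflammatory arthritis model. The labels do not state whether the groups share a genotype, which promoter drives a transgene, or the strain, age, sex, passage and time since withdrawal. The series asks by what route synoviocytes disturb endothelial cells once arthritis resolves.

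Glycolysis splits glucose into pyruvate in the cytosol, and lactate dehydrogenase turns pyruvate into lactate, which leaves the cell through monocarboxylate transporters. When oxygen is ample, prolyl hydroxylases mark the HIF alpha subunits for destruction. When oxygen is short, the alpha subunits persist, pair with ARNT and bind DNA at short sites with an RCGTG core, near genes of glycolysis among others. HIF is therefore regulated largely at the protein level, which these RNA measurements do not cover. In the inflamed joint, synoviocytes are known for high glycolytic activity.

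Libraries held 18120745 to 34971537 counts, so that 3 counts in a library equal 0.0858 to 0.166 CPM, normalized counts scaled to library size. The synoviocyte genes Pdpn (577 to 862 CPM over the 12 libraries), Pdgfra (49.3 to 132), Thy1 (30.7 to 197) and Prg4 (473 to 5010) were detected throughout. Macrophage markers were present too: 12 of them summed to 132 to 170.1 CPM in homeostasis, 663 to 719 in inflammation, where 11 of the 12 rose, and 61.6 to 69.2 in resolution. Lyz2 stood at 24.1 to 81.5, 344 to 448 and 15.8 to 20.5 CPM in these groups, and the pan-leukocyte gene Ptprc at 0.246 to 0.855, 2.52 to 4.31 and 0 to 0.464. The Y-linked gene Ddx3y stood at 22.2 to 26.2 CPM in the homeostasis libraries, at 0 to 0.137 in those of inflammation and at 0 in those of resolution, and Xist at 6.74 to 13.5, 71.5 to 154 and 123 to 268 CPM. Every comparison with homeostasis is thus also one of libraries with Y-linked transcripts against libraries with almost none, and these differences cannot be told apart. Tnf stood at 1.78 to 6.39, 0.573 to 1.76 and 0.136 to 0.467 CPM in the 3 groups, highest in homeostasis and lowest in resolution. RNA counted under the symbol Tnf was thus not raised in the inflammation libraries (mean 1.02 CPM, against 3.97 in homeostasis). Whether transcripts of a transgene would be counted under this symbol is not stated in the labels. Homeostasis 3 and 4 stood apart from 1 and 2: both were above both others in 16 of the 21 enzymes and transporters (76.2%) and in 5 of the 12 HIF genes (41.7%), against 28.9% of all genes tested. Calls that changed when 1 of these pairs served as the sole controls are given with the values for that pair.

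Enzymes of glycolysis that changed against homeostasis mostly fell, in inflammation and in resolution, while Hif1a rose. In inflammation against homeostasis, 2 of the 21 enzymes and transporters rose, 11 fell and 8 did not pass, with a median log2 fold change of -0.40. In resolution against homeostasis, 1 rose, 16 fell and 4 did not pass, with a median of -0.61. The median over all genes tested was -0.01 in each. Calls are an adjusted p under 0.05 in edgeR's quasi-likelihood test with Benjamini-Hochberg adjustment over all 15049 genes, and 18.3% of these were called lower in inflammation and 25.8% in resolution (either direction, 37.2% and 53.3%). A fall of at least 2-fold was called for Slc16a3 and Ndrg1 in inflammation (2 of the 33 genes, against 4.98% of all) and for these with Tpi1, Eno1 and Egln1 in resolution (5 of 33, against 8.25%). Hif1a alone rose at least 2-fold in either, against 8.85% and 15.2% of all genes. The library ranges of 12 genes lay wholly below homeostasis in inflammation and of 16 in resolution (17.3% and 21.6% of all), and those of 3 genes wholly above in each (18.1% and 21.9%). When homeostasis 1 and 2 alone served as controls, 3 of the 21 enzymes and transporters rose and 6 fell in inflammation (median -0.22), and 1 rose and 13 fell in resolution (-0.47). Of all genes, 17.2% and 22.2% were called lower with these controls. With homeostasis 3 and 4, 1 rose and 14 fell (-0.57), and 16 fell (-0.81), against 14.6% and 25.2% of all genes called lower. With upper-quartile scaling, 7 fell in inflammation (14.3% of all genes did), as Hk2, Gpi1, Gapdh and Pgk1 did not pass. In such bulk samples, fewer cells of a type and less RNA per cell cannot be told apart.

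The 12 HIF genes did not share a direction. In inflammation against homeostasis 2 rose (Hif1a, Car9) and 4 fell (Ndrg1, Egln1, Epas1, Pdk1), with 6 not passing and a median of -0.14. In resolution 2 rose (Hif1a, Bnip3l) and 3 fell (Ndrg1, Egln1, Pdk1), with 7 not passing and a median of -0.14. The background for higher calls was 19.0% and 27.5% of all genes. Both comparisons use the same homeostasis libraries, so their values stand side by side and are not independent.

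**Figure D1:**
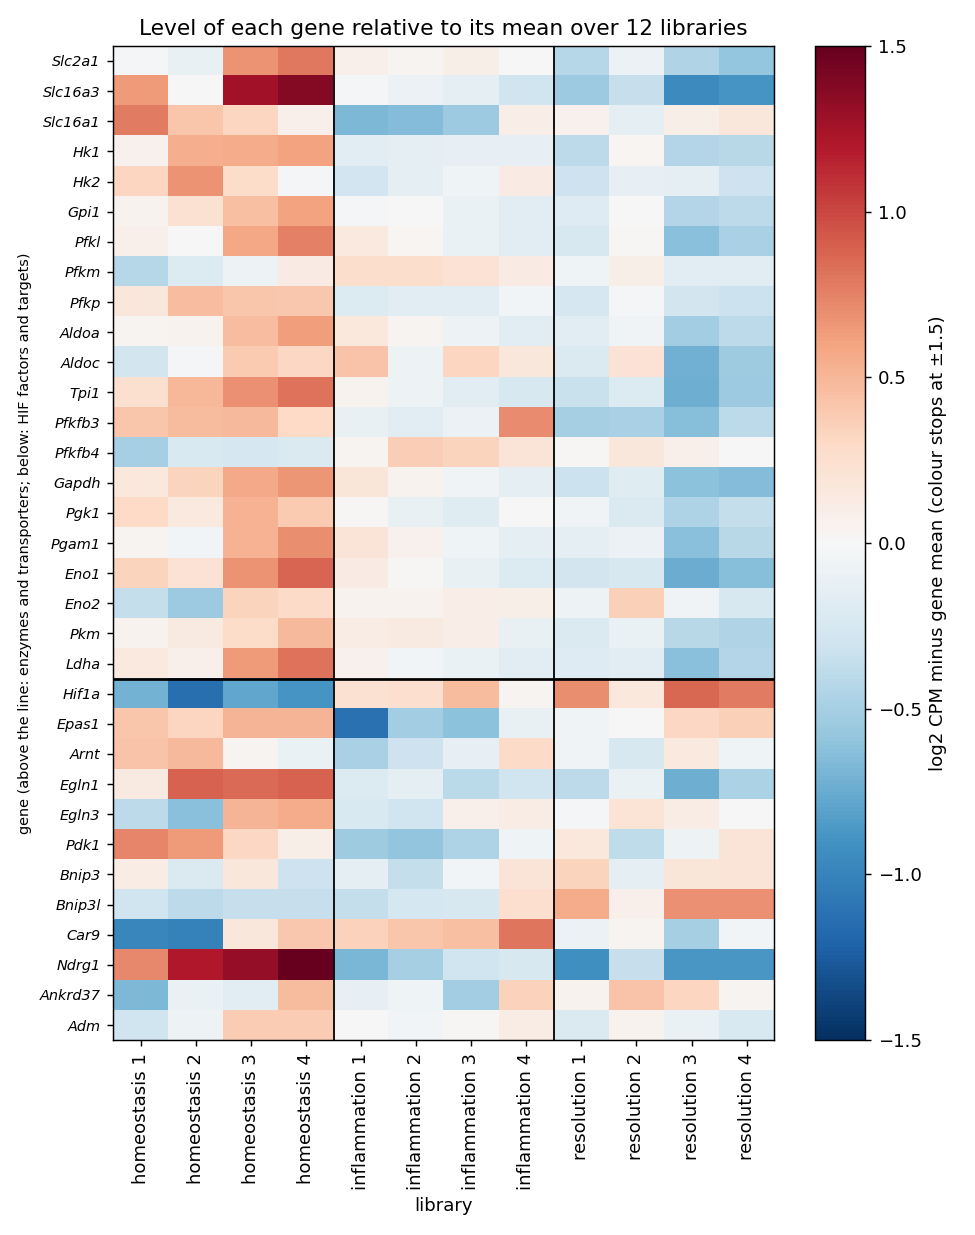
Heat map of the 33 genes (rows, ordered by role) in the 12 libraries (columns, by group), coloured by log2 CPM minus the gene's mean over all 12 (red above, blue below, colours stopping at 1.5 either way). Most enzyme rows are red in homeostasis and blue in resolution, and the Hif1a row runs the other way.

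**Figure D2:**
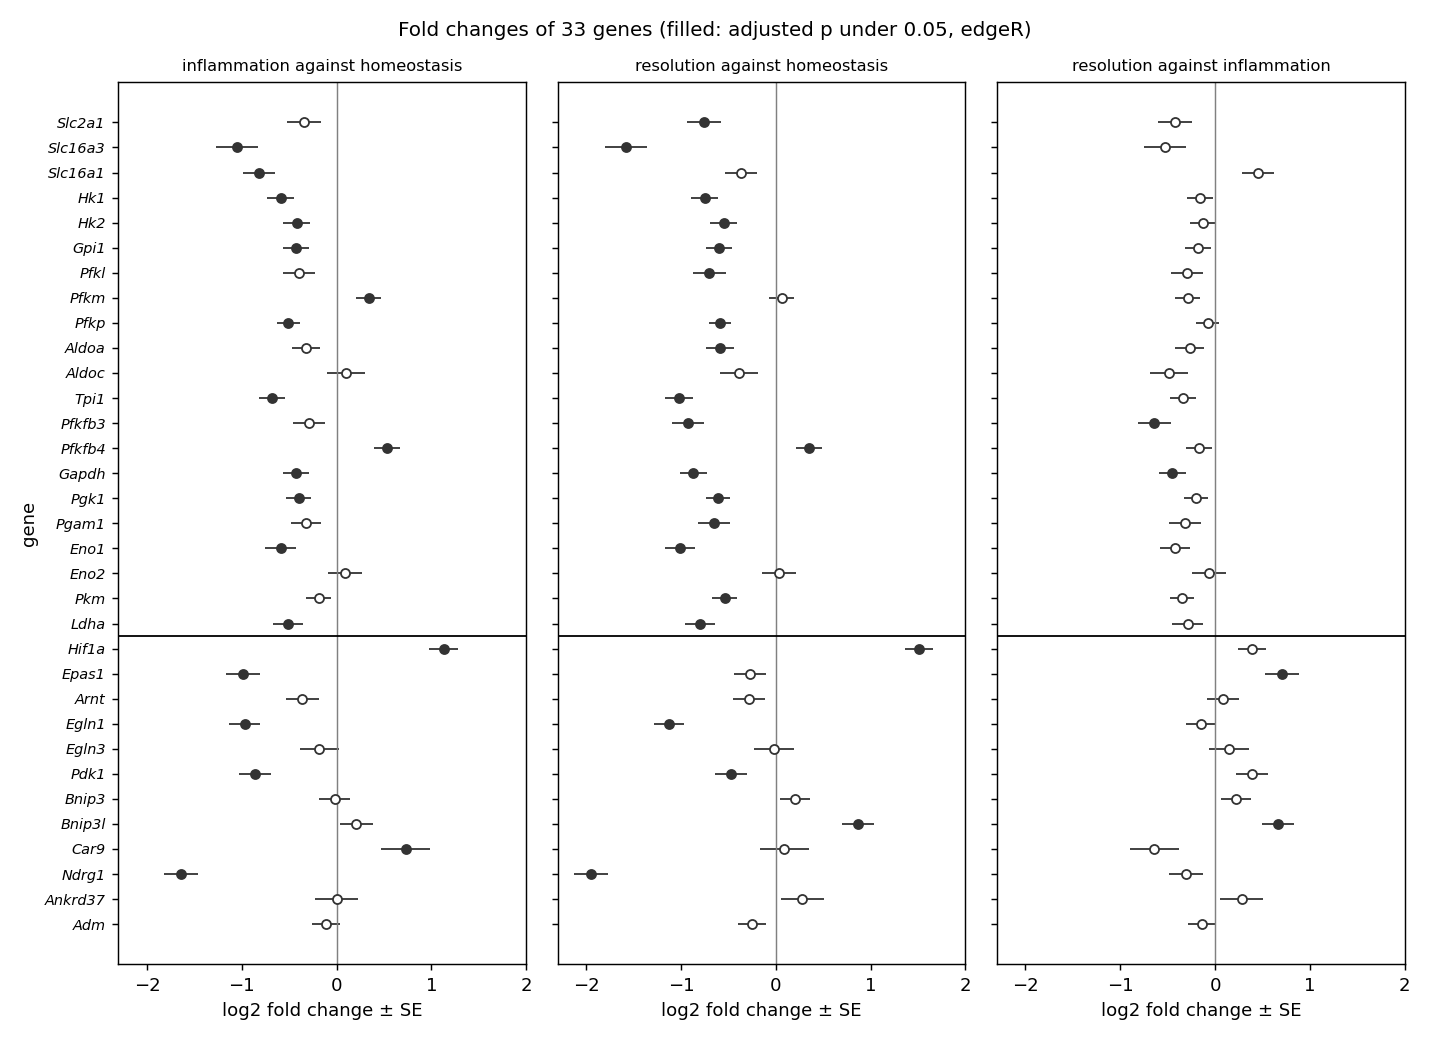
Log2 fold changes (x axis) of the 33 genes in the 3 comparisons, with standard errors as bars and filled points for an adjusted p under 0.05. Ndrg1 (-1.64 and -1.95) and Hif1a (1.13 and 1.51) lie at the 2 ends of the comparisons with homeostasis.

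Promoter sequence was set beside these changes because the HIF core can be read in it. RefSeq (build GRCm38.p6) lists a promoter for 30 of the 33 genes, and Bnip3l, Epas1 and Ndrg1 were not matched. Only the first listed window of each gene was searched. Members have up to 4 windows, so matches near other starts were not counted. In the 250 bases before the start, ACGTG or GCGTG (either strand) was found in 24 of 30 (80%), in 15 of the 21 enzymes and transporters (71.4%) and in 9 of the 9 HIF genes with an entry, against 43.8% of 17492 protein-coding promoters. The genes' windows had a median GC content of 61.0% against 55.2%, and a CACGTG counts on both strands. ACGTG alone was found in 50% against 17.6%, and CACGTG in 16.7% against 6.64%. A match is a description of letters, not a binding site.

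Ldha, Pgk1 and Eno1 are shown as enzymes whose RNA fell, with 5, 2 and 1 matches. Hk1 fell as well and has no match in this window, and Hif1a rose and has 3. The windows are chr7:46845554-46845803, chrX:106186850-106187099, chr4:150236458-150236707 and chr12:73907617-73907866 on the plus strand and chr10:62379909-62380158 on the minus strand, each written 5' to 3' with the motif in capitals. None overlaps an annotated exon. Some other windows in the counts above do, such as those of Pkm (208 of 250 bases, no match) and Pfkfb3 (148 bases, 1 match).
Ldha: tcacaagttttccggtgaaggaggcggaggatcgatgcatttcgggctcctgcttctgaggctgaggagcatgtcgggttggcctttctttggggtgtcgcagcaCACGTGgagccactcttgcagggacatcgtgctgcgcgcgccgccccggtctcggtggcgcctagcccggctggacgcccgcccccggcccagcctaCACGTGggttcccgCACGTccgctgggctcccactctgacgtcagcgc
Pgk1: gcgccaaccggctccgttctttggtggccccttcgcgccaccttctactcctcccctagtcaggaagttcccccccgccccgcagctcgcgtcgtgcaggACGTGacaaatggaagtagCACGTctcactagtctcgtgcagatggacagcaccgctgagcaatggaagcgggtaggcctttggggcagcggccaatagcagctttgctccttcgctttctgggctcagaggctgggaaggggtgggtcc
Eno1: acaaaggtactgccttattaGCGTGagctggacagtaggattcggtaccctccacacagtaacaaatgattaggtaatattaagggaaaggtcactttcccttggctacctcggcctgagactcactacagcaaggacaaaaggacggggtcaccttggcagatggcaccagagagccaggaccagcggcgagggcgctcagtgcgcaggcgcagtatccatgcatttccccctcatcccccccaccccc
Hk1: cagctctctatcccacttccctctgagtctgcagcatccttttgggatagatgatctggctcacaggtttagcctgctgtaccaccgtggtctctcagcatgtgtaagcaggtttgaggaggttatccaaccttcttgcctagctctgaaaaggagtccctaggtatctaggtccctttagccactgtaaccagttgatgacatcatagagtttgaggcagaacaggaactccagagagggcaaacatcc
Hif1a: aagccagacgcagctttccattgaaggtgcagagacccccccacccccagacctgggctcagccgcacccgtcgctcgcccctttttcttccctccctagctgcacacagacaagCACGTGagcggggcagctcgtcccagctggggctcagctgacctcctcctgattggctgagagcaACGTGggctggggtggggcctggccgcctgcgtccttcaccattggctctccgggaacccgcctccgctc
Among the 4 enzymes shown, genes with and without a match in the first listed window fell.

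Of the 3 carriers of glucose and lactate, 2 fell in inflammation (Slc16a3 and Slc16a1) and 2 in resolution (Slc16a3 and Slc2a1). Slc16a3, the lactate exporter MCT4 (chr11:120948480-120960868, plus strand), stood at 402, 259, 621 and 674 CPM in homeostasis 1 to 4, at 256, 243, 235 and 211 in inflammation and at 177, 204, 134 and 140.5 in resolution. All 8 doxycycline libraries were below all homeostasis libraries, although inflammation 1 (256) lay only just below homeostasis 2 (259). Slc16a3 fell in inflammation, with a log2 fold change and its standard error of -1.05 ± 0.22 (edgeR's adjusted p = 0.000919), and in resolution (-1.58 ± 0.22, 7.88e-06), where it was at 0.335 times the homeostasis level. With homeostasis 1 and 2 as the sole controls the changes were -0.48 and -1.02, and with 3 and 4 they were -1.43 and -1.97, all called.

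Slc16a1 (MCT1), which carries monocarboxylates in either direction, stood at 114, 88.8, 83.5 and 70.3 CPM in homeostasis, 41.7, 42.6, 45.6 and 71.3 in inflammation, and 69.4, 60.3, 70.8 and 74.9 in resolution. It fell in inflammation (-0.82 ± 0.17, adjusted p = 0.00107), with inflammation 4 inside the homeostasis range. Its resolution values did not pass (-0.37, adjusted p = 0.078 against homeostasis and 0.45, 0.0815 against inflammation). Against homeostasis it passed without homeostasis 4 (-0.47, 0.0331) and with homeostasis 1 and 2 as controls (-0.57, 0.0195). Without inflammation 4 the rise from inflammation to resolution passed (0.66, adjusted p = 0.00985).

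Slc2a1, the glucose transporter GLUT1, stood at 225, 210.2, 362 and 393 CPM in homeostasis, at 227 to 241 in inflammation and at 152 to 214 in resolution. It fell in resolution (-0.76 ± 0.18, adjusted p = 0.0012) and did not pass in inflammation (-0.34, 0.135). The homeostasis libraries split around the inflammation values: with 1 and 2 as the controls neither change passed (0.11, adjusted p = 0.582, and -0.32, 0.077), and with 3 and 4 the inflammation change passed (-0.66, 0.00125).

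Of the 9 genes of the upper steps, from hexokinase to triosephosphate isomerase, 1 rose and 5 fell in inflammation, and 7 fell in resolution. Hk1, a hexokinase that traps glucose in the cell, stood at 513, 717, 723 and 744 CPM in homeostasis, at 439.5 to 453 in inflammation and at 375, 501, 363 and 367 in resolution, with no overlap with homeostasis. It fell in both (-0.59 ± 0.14, adjusted p = 0.00252, and -0.75 ± 0.14, 0.000174). Hk2, the inducible hexokinase, also fell (-0.42 ± 0.14, 0.0274, and -0.55 ± 0.14, 0.00314), but the inflammation range (147 to 196 CPM) overlapped homeostasis (176 to 286) and that call was lost without homeostasis 1 or 2 or inflammation 1, 2 or 3 (adjusted p 0.0582 to 0.138; -0.26 without homeostasis 2). With homeostasis 3 and 4 as controls neither change of Hk2 passed (-0.19, 0.319, and -0.34, 0.0503).

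Tpi1, which interconverts the triose phosphates, had the lowest fold of the 9 in both comparisons. It stood at 912, 1088, 1245 and 1355 CPM in homeostasis, 799.5, 734, 689.6 and 655 in inflammation, and 614, 671, 465 and 527 in resolution. The 3 ranges of its libraries nearly formed steps, with resolution 2 (671) above inflammation 4 (655) as the overlap. Tpi1 fell in inflammation (-0.68 ± 0.14, adjusted p = 0.00114) and in resolution (-1.02 ± 0.15, 9.84e-06).

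Phosphofructokinase, the committing step, was lower for 2 of its 3 isoforms in resolution. Pfkp fell in both comparisons (-0.51 ± 0.12, adjusted p = 0.00216, and -0.59 ± 0.12, 0.00036), with libraries at 199 to 244 CPM under homeostasis, 153 to 172 under inflammation and 141 to 173 under resolution. Pfkl, the most abundant isoform per exon length, fell in resolution (-0.70 ± 0.17, 0.00189) and did not pass in inflammation (-0.40, 0.0686), unless homeostasis 1 or 2 was left out (-0.47, 0.0449, and -0.49, 0.029) or homeostasis 3 and 4 were the controls (-0.66, 0.00391). With homeostasis 1 and 2 as controls the resolution change was -0.36 (0.0782). Pfkm, the muscle-type isoform, went the other way and rose in inflammation (0.34 ± 0.13, 0.04; 84.7, 98.9, 108 and 124 CPM against 136, 136, 132 and 124), a call lost without homeostasis 1, 2 or 3 or inflammation 1, 2 or 3 (adjusted p 0.0537 to 0.105) and with homeostasis 3 and 4 as controls (0.21, 0.233). The share of Pfkm in the 3 isoforms, per exon length, was 19.4% ± 1.81 in homeostasis, 28.7% ± 0.911 in inflammation and 28.6% ± 1.97 in resolution (SD, n = 4).

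Gpi1, the isomerase, fell in both comparisons (-0.43 ± 0.14, adjusted p = 0.0198, and -0.60 ± 0.14, 0.00112), the inflammation call being lost without homeostasis 3 or 4 or inflammation 3 or 4 (adjusted p 0.0526 to 0.0811) and with homeostasis 1 and 2 as controls (-0.22, 0.273). Aldoa, the main aldolase here, fell in resolution (-0.59 ± 0.15, 0.00278; -0.33, 0.0913 with homeostasis 1 and 2 as controls) and stood at -0.32 (0.0993) in inflammation, where it passed with homeostasis 3 and 4 as controls (-0.53, 0.0108). Aldoc, at 6.54 to 14.4 CPM, passed in neither, although it fell in resolution without resolution 2 (-0.60, 0.0142) and with homeostasis 3 and 4 as controls (-0.61, 0.0273).

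The 2 regulators of phosphofructokinase moved apart. PFKFB3, with strong kinase activity, makes fructose 2,6-bisphosphate, the activator of phosphofructokinase, and Pfkfb4 encodes a second such enzyme. Pfkfb3 stood at 56.2, 58.4, 58.9 and 51.8 CPM in homeostasis, 38.8, 37.6, 39.7 and 68.5 in inflammation, and 29.7, 30.1, 26.9 and 31.9 in resolution. Inflammation 4 was above every homeostasis library while the other 3 were below them all.

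Pfkfb3 did not pass in inflammation (-0.29 ± 0.17, adjusted p = 0.191), but did without inflammation 4 (-0.53, 0.0051). It fell in resolution against homeostasis (-0.93 ± 0.17, 0.000144) and against inflammation (-0.64 ± 0.17, 0.0149). The latter did not pass without resolution 3 (-0.61, 0.0569) and was -0.39 without inflammation 4, still called. Pfkfb4, at 9.8, 11.9, 11.7 and 12 CPM in homeostasis, 14.3, 17.9, 17.5 and 15.9 in inflammation and 13.8 to 15.6 in resolution, rose in both (0.53 ± 0.14, 0.00659, and 0.35 ± 0.14, 0.0429). The resolution call was lost without homeostasis 1 or 3 or any resolution library (adjusted p 0.0573 to 0.112), and with either pair of homeostasis libraries as controls (0.41, 0.0701, and 0.30, 0.129).

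In the lower steps, 4 of 7 genes fell in inflammation and 6 of 7 in resolution. Eno1, the common enolase (chr4:150236721-150248879, plus strand), stood at 901, 833, 1139 and 1316 CPM in homeostasis, 783, 724, 662 and 621 in inflammation, and 589.9, 606, 427 and 459.6 in resolution. The 3 ranges did not overlap. Eno1 fell in inflammation (-0.59 ± 0.16, adjusted p = 0.00617; -0.31, 0.141 with homeostasis 1 and 2 as controls) and in resolution (-1.01 ± 0.16, 2.64e-05). Eno2, the neuron-type enolase, did not pass (0.09 and 0.03), except with homeostasis 1 and 2 as controls, where it rose in both (0.52, 0.0175, and 0.45, 0.0302). Its share of the summed Eno1 and Eno2 level per exon length was 5.71 to 7.52% in homeostasis, 8.87 to 11.2% in inflammation and 10.6 to 14.3% in resolution. Other enolase genes are outside this sum: Eno1b, a close copy of Eno1, stood at 719.8, 482 and 356 CPM per kb in the 3 groups and fell in both comparisons (-0.58 ± 0.16, 0.00634, and -1.02 ± 0.16, 2.25e-05), and the muscle-type Eno3 stood at 16.4, 11.6 and 6.05 CPM per kb.

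Ldha, which makes lactate (chr7:46841475-46855627, plus strand), had the highest level per exon length among the 33, at 1255 CPM per kb in homeostasis. This ranking is of levels as counted, and the counts of Gapdh, Eno1 and Pgk1 are uncertain because of shared sequence. The homeostasis libraries held 3359, 3186, 4739 and 5326 CPM of Ldha, the inflammation libraries 3168, 2953, 2825 and 2691, and the resolution libraries 2650.2, 2702, 1962 and 2236. No doxycycline library reached the homeostasis range, but inflammation 1 (3168) came close to homeostasis 2 (3186). Ldha fell in resolution (-0.80 ± 0.16, adjusted p = 0.000338; -0.47, 0.0163 with homeostasis 1 and 2 as controls). The fall in inflammation (-0.51 ± 0.16, 0.0161) did not pass without homeostasis 3 (-0.45, 0.0525), without homeostasis 4 (-0.36, 0.0775) or with homeostasis 1 and 2 as the controls (-0.17, 0.426).

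Gapdh fell in inflammation (-0.43 ± 0.14, adjusted p = 0.0233, with overlapping ranges), in resolution against homeostasis (-0.87 ± 0.14, 4.3e-05) and against inflammation (-0.45 ± 0.14, 0.0377). The first of these calls was lost without homeostasis 3 or 4 or inflammation 2, 3 or 4 (adjusted p 0.056 to 0.0819) and with homeostasis 1 and 2 as controls (-0.23, 0.269). The last was lost without inflammation 1, 2 or 3 or resolution 1, 3 or 4 (0.0526 to 0.126) and with GC and length fitted (-0.30, 0.0591). It was also lost when replicate number entered as a block over all 12 libraries (-0.45, 0.0708). With that block in the 8 inflammation and resolution libraries alone it was kept (-0.47, 0.00127). That fit was chosen after seeing the data, and 32.6% of all genes were called in it. Pgk1, which is X-linked, fell in both comparisons with homeostasis (-0.40 ± 0.13, 0.0162, and -0.61 ± 0.13, 0.000461), the former lost without homeostasis 3 or inflammation 2 or 3 (0.0606 to 0.0631) and with homeostasis 1 and 2 as controls (-0.28, 0.149). Pgam1 (-0.65 ± 0.17, 0.00282) and Pkm, the pyruvate kinase gene (-0.54 ± 0.13, 0.00177), fell in resolution and did not pass in inflammation; Pgam1 did not pass in resolution with homeostasis 1 and 2 as controls (-0.32, 0.111), and passed in inflammation with 3 and 4 (-0.57, 0.0081).

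Counts of several of these genes are uncertain because their sequence recurs elsewhere. Of the 100-base words in the longest transcript, 67.03% for Pgk1, 59.02% for Eno1, 39.74% for Pgam1 and 18.24% for Gapdh were also found in other annotated genes, those of Gapdh in 72 genes. Bnip3l (15.32%), Pkm (9.82%) and Bnip3 (9.41%) shared less, Hif1a 1.12%, Ldha 1.28% and Tpi1 0.8%. How reads of such words were assigned is not stated in the labels. Gapdh stood at only 38.6 CPM per kb in homeostasis, against 780 for Aldoa and 638 for Pkm. The part of shared sequence in this gap was not tested.

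**Figure D3:**
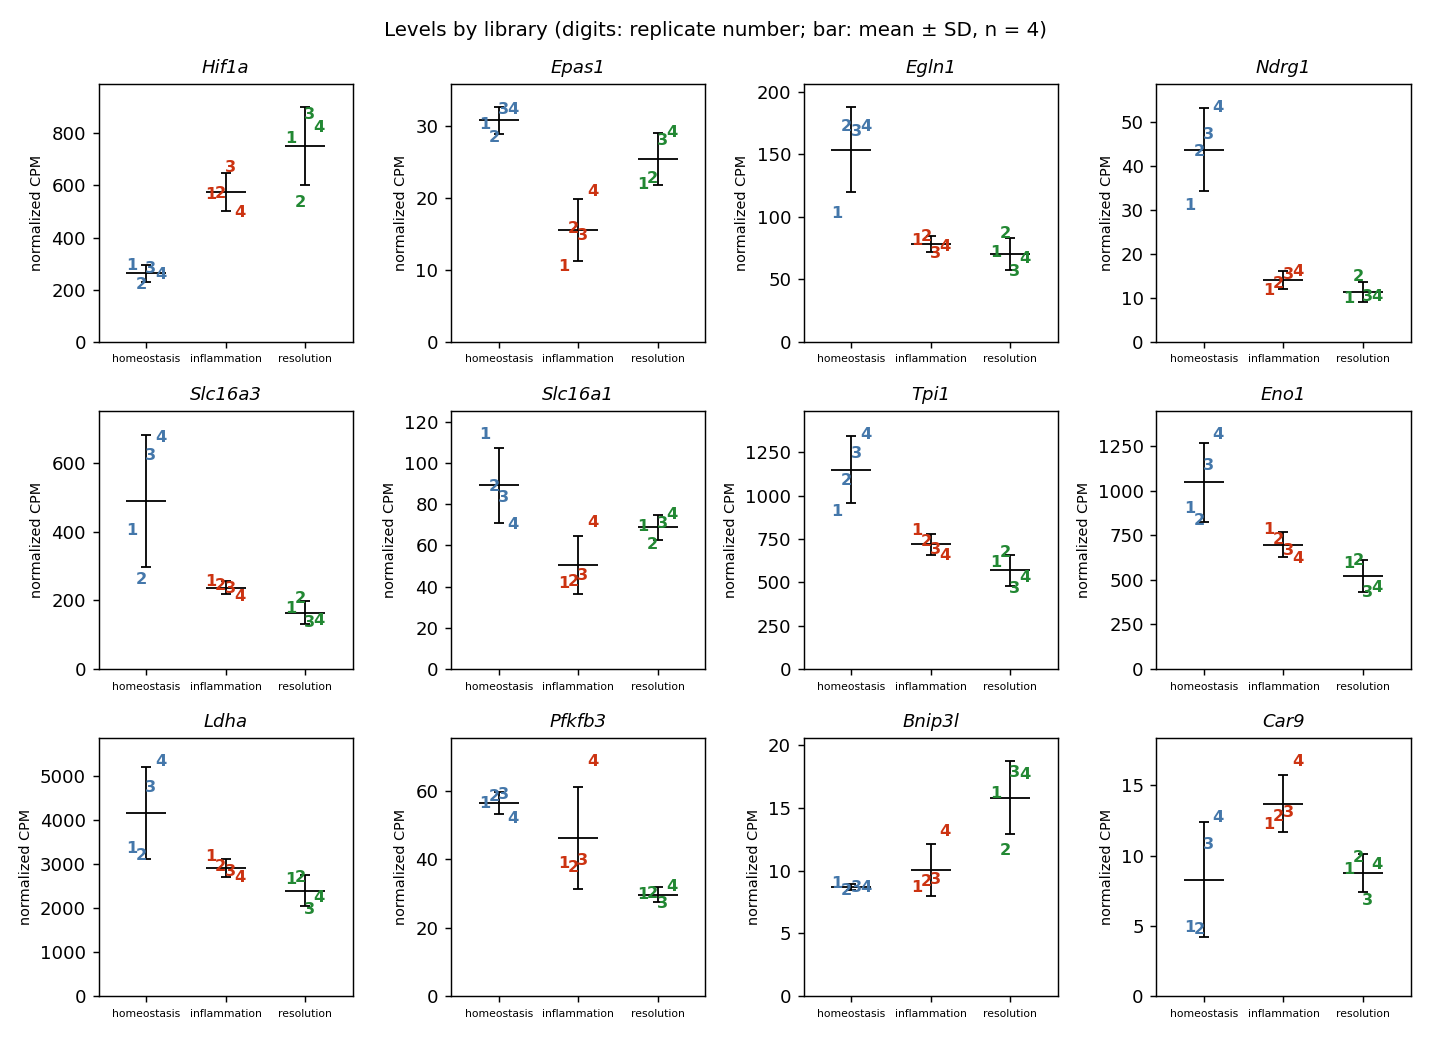
Levels (CPM) of 12 of the genes in each library, as digits that give the replicate number, with the group mean and SD (n = 4) as bars. The Hif1a points of both doxycycline groups lie above all homeostasis points, and those of Ndrg1 and Egln1 below them.

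The 3 HIF subunit genes each did something different. Hif1a, the oxygen-regulated alpha subunit (chr12:73901375-73947530, plus strand), stood at 294, 219, 280.2 and 259 CPM in homeostasis, 564, 570.3, 668 and 495 in inflammation, and 780, 534, 870.2 and 821 in resolution. Every doxycycline library was above every homeostasis library, and resolution 2 lay inside the inflammation range. Hif1a rose 2.18-fold in inflammation (1.13 ± 0.15, adjusted p = 1.2e-05) and 2.86-fold in resolution (1.51 ± 0.15, 1.65e-07). Against inflammation, resolution did not pass (0.39 ± 0.15, 0.0862), and did without resolution 2 (0.52, 0.00738).

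Epas1 encodes the other main alpha subunit, HIF-2 alpha (chr17:86753700-86833410, plus strand). It stood at 30.2, 28.4, 32.3 and 32.4 CPM in homeostasis, 10.5, 15.8, 14.8 and 21 in inflammation, and 21.9, 22.8, 28.1 and 29.1 in resolution. Inflammation was below both other groups with no overlap, and resolution overlapped the low end of homeostasis. Epas1 fell in inflammation (-0.99 ± 0.18, adjusted p = 0.000237), rose from inflammation to resolution (0.71 ± 0.18, 0.00977; 0.63, 0.0514 without resolution 4), and in resolution against homeostasis did not pass (-0.27, 0.196). Per exon length, Epas1 held 11.1% ± 1.0 of the summed Epas1 and Hif1a level in homeostasis, 2.83% ± 1.03 in inflammation and 3.52% ± 0.606 in resolution (SD, n = 4).

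Arnt, the shared beta subunit, stood at 66.9 to 100.4 CPM in homeostasis, 51.4 to 87.6 in inflammation and 60.7 to 79.7 in resolution. It passed in none of the 3 comparisons (-0.36, adjusted p = 0.0998, -0.28, 0.168, and 0.08, 0.769). Without inflammation 4, its highest library there, the inflammation change passed (-0.52, 0.0213). Arnt depended on the controls: with homeostasis 1 and 2 it fell in both comparisons (-0.58, 0.0141, and -0.51, 0.0215), and with 3 and 4 the changes were -0.07 and -0.01.

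Of the prolyl hydroxylases, Egln1 (PHD2), the main oxygen sensor of the pathway (chr8:124908587-124949324, minus strand), stood at 103, 172, 168 and 172 CPM in homeostasis, 81.4, 84.6, 70.8 and 76.2 in inflammation, and 71.4, 86.9, 56.2 and 67 in resolution. Homeostasis 1 was far below its fellows yet above all doxycycline libraries. Egln1 fell in inflammation (-0.97 ± 0.16, adjusted p = 0.000122) and in resolution (-1.13 ± 0.16, 1.18e-05), to 0.458 times the homeostasis level.

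Egln3 (PHD3), itself known as a HIF target, stood at 25.2, 21.5, 47.2 and 48.7 CPM in homeostasis, 26.9 to 35.7 in inflammation and 32.6 to 38.1 in resolution. It did not pass in either comparison with homeostasis (-0.18, adjusted p = 0.544, and -0.02, 0.934). The resolution change was 0.58 (0.00985) with homeostasis 1 and 2 as controls and -0.45 (0.0197) with 3 and 4, so its sign depends on which controls are used. In inflammation it fell with 3 and 4 (-0.58, 0.00671) and stood at 0.44 (0.0533) with 1 and 2. Its share of the summed Egln1 and Egln3 level per exon length was 23.6% ± 6.25, 35.2% ± 4.97 and 40.5% ± 4.09 (SD, n = 4) in the 3 groups.

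**Figure D4:**
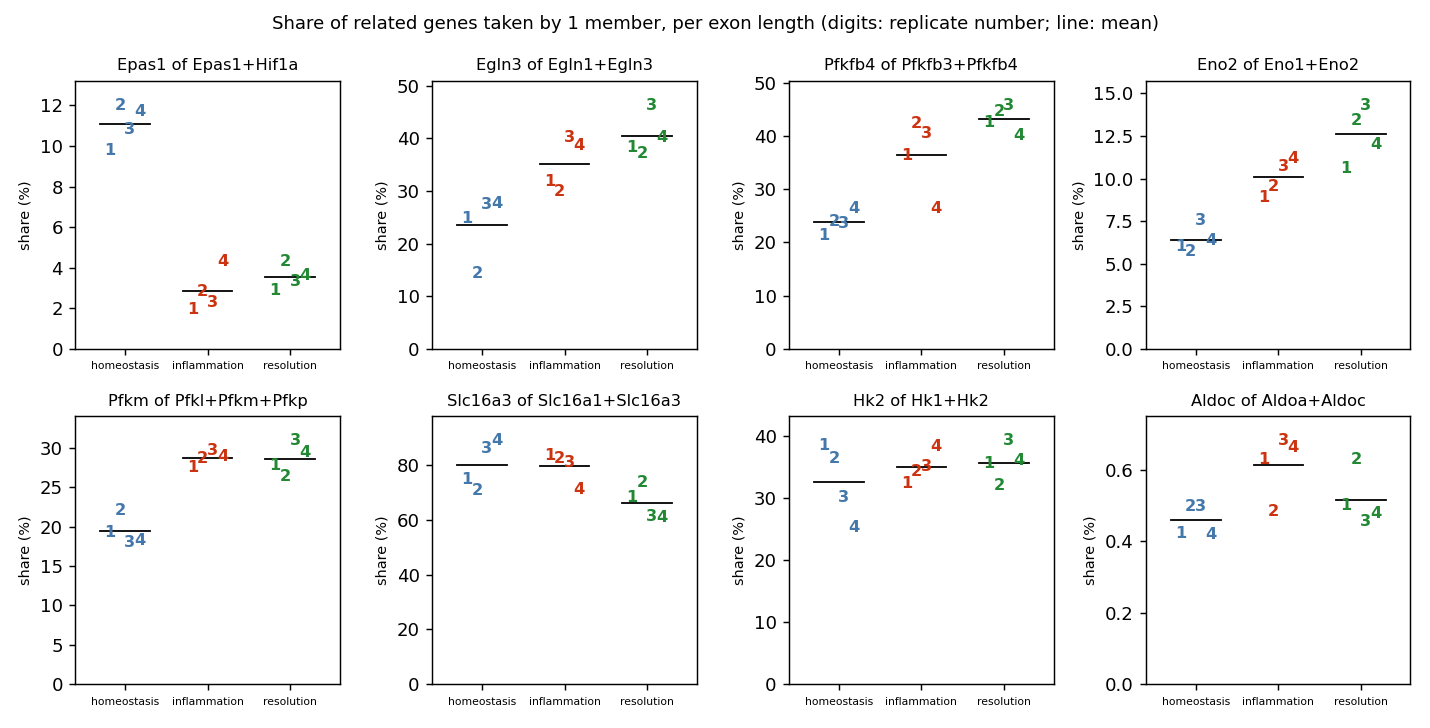
Share of a gene in the summed level per exon length of its related genes (%), in each library (digits give the replicate number, lines the group mean). Epas1 beside Hif1a is lower in all 8 doxycycline libraries (1.93 to 4.32%) than in homeostasis (9.77 to 12%), and Eno2 beside Eno1 is higher.

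Targets outside glycolysis split. Ndrg1, a stress-response gene induced by low oxygen (chr15:66929318-66969640, minus strand), stood at 31.1, 43.4, 47.1 and 53.4 CPM in homeostasis, 11.7, 13.3, 15.3 and 16 in inflammation, and 9.95, 14.8, 10.3 and 10.3 in resolution. All doxycycline libraries were below all homeostasis libraries. It fell most among the 33 genes, to 0.322 times the homeostasis level in inflammation (-1.64 ± 0.18, adjusted p = 9.84e-07) and 0.259 times in resolution (-1.95 ± 0.18, 5.44e-08).

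Pdk1, a kinase that switches off pyruvate dehydrogenase, stood at 58.3, 54.6, 43.6 and 37.4 CPM in homeostasis, 24.4, 23.3, 25.6 and 33.6 in inflammation, and 39.2, 27, 33.4 and 40.4 in resolution. Its inflammation libraries were all below homeostasis, and resolution overlapped both groups. It fell in inflammation (-0.86 ± 0.17, adjusted p = 0.000677) (-0.57, 0.0221 with homeostasis 3 and 4 as controls) and in resolution (-0.47 ± 0.17, 0.0268). The latter was lost without homeostasis 1 or 2 or resolution 2 or 3 (0.073 to 0.106) and with homeostasis 3 and 4 as controls (-0.20, 0.375).

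Bnip3l (NIX), a mitophagy receptor, stood at 8.99, 8.4, 8.66 and 8.65 CPM in homeostasis, 8.64, 9.17, 9.3 and 13.1 in inflammation, and 16.2, 11.6, 17.8 and 17.7 in resolution. It rose in resolution against homeostasis (0.87 ± 0.17, adjusted p = 0.000347) and against inflammation (0.66 ± 0.17, 0.0145), where inflammation 4 and resolution 2 overlapped. Both calls were lost when GC content and length were fitted (0.24, 0.182, and 0.40, 0.0684), and the one against inflammation also without inflammation 1 or 2 or resolution 3 or 4 (0.0637 to 0.0706). Its relative Bnip3 passed in no comparison as fitted, and with GC content and length fitted it fell in both doxycycline groups against homeostasis (-0.51, 0.00659, and -0.52, 0.00408).

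Car9, a cell-surface carbonic anhydrase widely used as a hypoxia marker, stood at 4.87, 4.74, 10.8 and 12.7 CPM in homeostasis, 12.2, 12.8, 13.1 and 16.7 in inflammation, and 9.02, 9.9, 6.81 and 9.34 in resolution. Homeostasis split in pairs, and the inflammation range overlapped its higher pair. The rise in inflammation (0.73 ± 0.26, adjusted p = 0.0323) was lost with homeostasis 3 and 4 as controls (0.24, 0.37) and without homeostasis 1 or 2 or inflammation 3 or 4 (0.0531 to 0.0889). With homeostasis 1 and 2 as controls Car9 rose in inflammation (1.51, 1.58e-05) and in resolution (0.86, 0.00288). Adm (adrenomedullin, a vasodilator peptide) and Ankrd37 passed in no comparison, with log2 fold changes of -0.25 to 0.28; Adm fell in resolution without homeostasis 1 (-0.36, 0.0359), and in both comparisons with homeostasis 3 and 4 as controls (-0.34, 0.0457, and -0.50, 0.00281).

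Between resolution and inflammation, 4 of the 33 genes passed, against 16.2% of all genes tested. Pfkfb3 and Gapdh fell (7.64% of all genes did) and Epas1 and Bnip3l rose (8.52%), with a median over the 33 of -0.18 against 0.02 over all genes. No member changed 2-fold, as 3.24% of all genes did downward and 2.11% upward. Ranges lay apart downward in 7 members (9.91% of all) and upward in 1, Epas1 (8.94%). None of the 4 calls held under all 16 other settings tried. Same-numbered inflammation and resolution libraries correlated weakly in their deviations from the group means (r of 0.126 to 0.214). Differently numbered pairs of these groups ran from -0.251 to 0.2, the highest being inflammation 1 with resolution 2. A fit of those 8 libraries alone with the number as a block was chosen after seeing the data. In it 5 members rose and 14 fell, against 32.6% of all genes called. Hif1a (0.36, adjusted p = 0.0215), Slc16a1 (0.47, 0.00339) and Pdk1 (0.38, 0.0208) rose in that fit, and Slc16a3 (-0.56, 0.000277), Eno1 (-0.44, 0.00196), Tpi1 (-0.36, 0.0104) and Ldha (-0.31, 0.0286) fell. With the block over all 12 libraries, 2 rose and 1 fell. Without resolution 2, 5 members rose and 8 fell, including Tpi1 (-0.43, adjusted p = 0.0344), Eno1 (-0.50, 0.027), Slc16a3 (-0.65, 0.0432) and Pkm (-0.42, 0.0199). Calls grew over all genes as well: 4191 passed without that library, and 2431 of 15049 with it.

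GC content moved with these changes. Across the 33 genes, the log2 fold change of resolution against inflammation and the GC content of the longest transcript had a Pearson r of -0.65 and a Spearman rho of -0.54, against -0.29 and -0.47 across 13628 genes. For resolution against homeostasis r was -0.51 in the members and -0.33 in all. These describe genes within the same libraries and carry no p. Hif1a (41.34%) and Bnip3l (41.85%) are at the low end, and Eno1 (57.42%), Pkm (57.69%) and Slc16a3 (56.63%) at the high end.

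With GC content and length as offsets, the 21 enzymes and transporters gave 10 falls and 2 rises in inflammation and 17 falls and 3 rises (Pfkm, Pfkfb4 and Eno2) in resolution, with medians of -0.27 and -0.45, while 42.9% and 52.4% of all genes were called in either direction. The rise of Hif1a was 0.71 in inflammation and 0.81 in resolution, still called and over 1.5 times smaller on the log2 scale than without the offsets. Tpi1 (-0.59 and -0.74), Eno1 (-0.48 and -0.68), Ndrg1 (-1.48 and -1.76) and Egln1 (-0.87 and -0.79) kept their calls, as did Pkm (-0.21), Aldoa (-0.26), Slc2a1 (-0.42), Pfkl (-0.39), Hk1 (-0.48), Hk2 (-0.30), Gpi1 (-0.35), Ldha (-0.53) and Gapdh (-0.57) in resolution with falls over 1.5 times smaller. In inflammation Hk2 (-0.27, adjusted p = 0.086) and Gpi1 (-0.27, 0.072) lost their calls, while Aldoa (-0.25, 0.028) and Arnt (-0.26, 0.0492) fell; in resolution Arnt fell (-0.27, 0.0327), and Slc16a1 fell there too (-0.91, 6.22e-05).

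**Figure D5:**
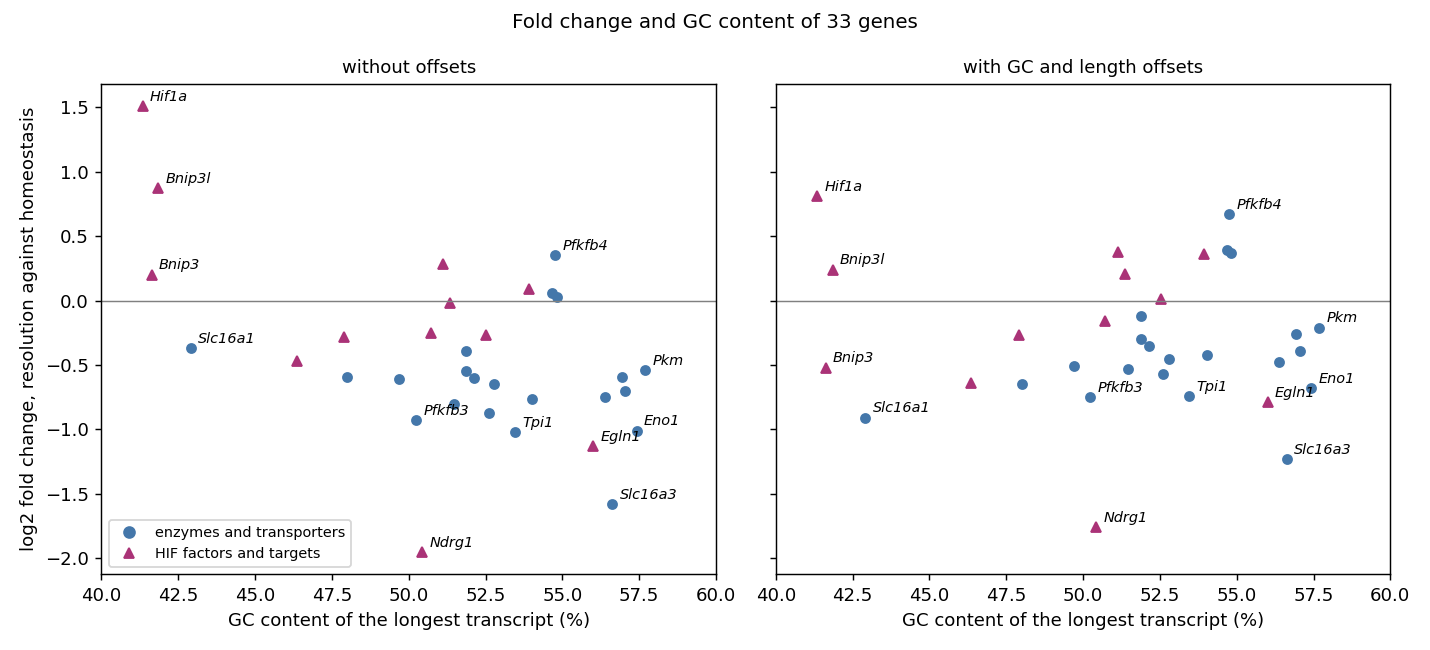
Log2 fold change (y axis) against GC content of the longest transcript (%, x axis) for the 33 genes in resolution against homeostasis, without (left) and with (right) GC and length offsets, with circles for enzymes and transporters and triangles for HIF genes. Hif1a moves from 1.51 to 0.81 and Bnip3l from 0.87 to 0.24, while Ndrg1 stays lowest (-1.95 and -1.76).

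Other genes of the same pathways, from lists drawn up alongside the members, were counted in the same way. Their counts are read against the 37.2% and 53.3% of all genes called in inflammation and in resolution against homeostasis (lower, 18.3% and 25.8%). Of 43 further hypoxia-response genes, 4 rose and 13 fell in inflammation (median -0.23), and 6 rose and 23 fell in resolution (median -0.58). Those with the smallest adjusted p were Stc2 (-1.48 ± 0.18, adjusted p = 2.46e-06) and the chemokine gene Cxcl12 (-1.43 ± 0.18, 3.84e-06), which fell in inflammation, and Gbe1, the glycogen branching enzyme, which rose (1.14 ± 0.16, 1.58e-05, and 1.53 ± 0.16, 2.37e-07 in resolution). P4hb (-1.14 ± 0.13) and Jmjd6 (-1.12 ± 0.13) fell in resolution. The libraries of Stc2, Cxcl12, P4hb and Jmjd6 lay wholly below homeostasis in both doxycycline groups.

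Of 15 other glycolytic genes, 4 rose and 2 fell in inflammation, and 3 rose and 6 fell in resolution, near those shares. Bpgm, which makes 2,3-bisphosphoglycerate, rose in both (1.28 ± 0.14, adjusted p = 9.44e-07, and 1.54 ± 0.14, 3.95e-08). Hk3, a hexokinase of myeloid cells, stood at 2.13 ± 0.773, 8.67 ± 1.33 and 0.428 ± 0.0836 CPM (SD, n = 4) in the 3 groups. The macrophage markers given above were likewise highest in inflammation, and their part in the values of Hk3 or of the members was not tested.

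Of 15 HIF regulators, 2 rose and 4 fell in inflammation, and 3 rose and 5 fell in resolution, about as often as all genes. Hif1an, which hydroxylates an asparagine of the alpha subunits, fell in inflammation (-0.66 ± 0.15, adjusted p = 0.00169). Arnt2 rose there (0.8 ± 0.18, 0.00145). Hsp90ab1 fell in inflammation (-0.57 ± 0.11, 0.00065) and in resolution (-0.6 ± 0.11, 0.000193). Siah2, a ubiquitin ligase of prolyl hydroxylases, fell in resolution (-1.19 ± 0.16, 4.58e-06), and Cul2, a scaffold of the ligase that destroys HIF alpha, rose there (0.82 ± 0.14, 5.83e-05). In both doxycycline groups the libraries of Hif1an and Siah2 lay wholly below homeostasis, and those of Arnt2 and Cul2 wholly above it.

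Among 14 genes of pyruvate entry into mitochondria, 2 rose and 1 fell in inflammation and 5 rose and 1 fell in resolution, both below those shares. Pdp1, the phosphatase that reactivates pyruvate dehydrogenase, rose (0.99 ± 0.17, adjusted p = 0.000176, and 1.67 ± 0.17, 1.82e-07), while of the kinases that oppose it Pdk1 fell in both, Pdk3 fell in inflammation (-0.52 ± 0.16, 0.014), Pdk2 rose in inflammation (0.59 ± 0.17, 0.0112), and Pdk4 rose in resolution against homeostasis (0.77 ± 0.17, 0.000675) and against inflammation (0.96 ± 0.17, 0.000485).

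Proliferation markers were highest in homeostasis and lowest in resolution. The summed level of 6 of them was 716 to 788 CPM in homeostasis, 223 to 265 in inflammation and 89.5 to 115 in resolution, and all 6 fell in each of the 3 comparisons. Fibroblast markers summed to 23876 to 25526, 17876 to 21397 and 7104 to 12996 CPM. Most of that sum was collagen RNA (means of 9560 CPM for Col1a1, 7085 for Col1a2 and 3025 for Col3a1 in homeostasis). Of the 10 fibroblast markers, 1 rose and 3 fell in inflammation, and 2 rose and 6 fell in resolution. Cdh11 averaged 196, 301 and 373 CPM in the 3 groups and Pdpn 716, 729 and 745. Chondrocyte markers summed to 1029.6 to 1322, 200.1 to 279 and 106 to 149. Most of that sum in homeostasis was Col2a1, with means of 828, 2.62 and 2.73 CPM in the 3 groups. In inflammation most of it was Col11a1, with means of 182, 191 and 58.4 CPM in the 3 groups. The part of these marker genes in the members' changes was not tested.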

How the data were processed

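Poly(A) RNA of 12 cultured synoviocyte samples was sequenced with paired reads of 150 bases and 6 G of raw data each, per the labels' protocols. The authors deposited estimated counts per gene symbol, which are not normalized, and these expected counts were rounded to whole numbers before testing (1.43% were not whole). Reads were assigned on GRCm38.p3, as the build is named per the submitters' processing notes. Aligner, counter, strand setting and annotation were not given in the sources used here. In all, 36930 entries were listed, of which 13 without a value were left out and 42 repeats over 34 symbols were summed, leaving 36875 symbols. No row without a gene name was used.

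Groups and replicate numbers came from the sample titles. Whether replicates were separate animals or cultures is not said in the labels, and a p-value then reflects only how these libraries vary, perhaps technically. No 2 libraries of a group agreed within sampling noise. Replicate numbers were checked for pairing by the correlation of same-numbered libraries' deviations from their group means. All 4 pairs of inflammation and resolution were over 0.1 (0.126 to 0.214), and the pairs with homeostasis were not (-0.228 to 0.08). Differently numbered pairs ran from -0.251 to 0.2 between inflammation and resolution, and from -0.342 to 0.355 over all groups. No label says what the number marks. The main fit left the pairing out, and it entered only as a replicate block in alternative fits.

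Genes were filtered with edgeR's default, leaving 15049, scaled by the trimmed mean of M-values, and tested with edgeR's robust quasi-likelihood F test on the 12 libraries together, with a term for group alone (R 4.3.3, edgeR 4.0.16). P-values were adjusted by Benjamini-Hochberg over all genes, at 0.05. The standard error is the log2 fold change divided by the root of F. Levels are normalized CPM. The scripts were tested on simulated data. The biological coefficient of variation was 18.6%. The level that 3 counts equal covers counting error only.

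The members and gene lists were chosen with earlier results of these data known, and the lists are not independent support. Wider genes were named as up to 3 with the smallest adjusted p in each list and comparison, and members were described in full where they changed at least 2-fold, with others of each role. GC content, exon length and shared 100-base words came from GENCODE M21 gene models on GRCm38 (90.6% of tested genes matched), promoters from RefSeq GRCm38.p6. Alternatives were RLE and upper-quartile factors, DESeq2 1.42.0, no filter, only the compared groups, a replicate block (and, chosen after seeing the data, one for inflammation and resolution alone), GC and length offsets, homeostasis pairs as sole controls, and leaving out each library.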

Additional observations from a re-analysis of the deposited data

Results flagged for a closer look

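In 9 of the 99 sets of 4 libraries (33 genes in 3 groups), 1 library stood far from the other 3; chance gives about 1 in 20. The gap to the nearest library, divided by the range, exceeded Dixon's critical value of 0.829.

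Homeostasis 1 was low for Hk1 (513 CPM, the nearest library at 717), for Egln1 (103 against 168) and for Pfkfb4 (9.8 against 11.7). Inflammation 4 was high for Pfkfb3 (68.5 against 39.7), Slc16a1 (71.3 against 45.6) and Bnip3l (13.1 against 9.3), and low for Pkm (2484 against 2873). Resolution 2 was high for Hk1 (501 against 375) and Ndrg1 (14.8 against 10.3).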

How the results depend on the processing

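Of the 19 genes called in inflammation and the 22 called in resolution against homeostasis, 11 and 14 kept their calls under all 17 other settings, among them Hk1, Pfkp, Tpi1, Slc16a3, Egln1, Hif1a and Ndrg1 in both; of the 4 called between resolution and inflammation none did. Leaving out each library gave 4476 to 5394 called genes in all for inflammation (2 to 4 members higher, 11 to 16 lower), 7090 to 8510 for resolution (2 to 3 higher, 18 to 20 lower) and 1242 to 4191 for resolution against inflammation (0 to 5 higher, 0 to 8 lower). Homeostasis 3 and 4 as sole controls left 2 members higher in inflammation, and 1 and 2 gave 5 higher in resolution. Over all genes, 2793 and 3643 were higher in these fits. Between resolution and inflammation, no filter gave 6 members lower, the 2 groups alone 7, the replicate block 1, and GC and length offsets 1 lower and 1 higher. Of all genes, 4.69%, 9.8%, 6.31% and 7.68% were called lower in these settings, in that order. Among changes called before or after, the sign turned for Bnip3 in resolution with the offsets (-0.52) and for Egln3 with homeostasis 1 and 2 as controls (0.58); the cause was not tested.

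The replicate block gave 5053, 7589 and 1898 called genes in the 3 comparisons. Beside Gapdh, it ended the calls of Pfkm in inflammation (adjusted p = 0.0673) and Pfkfb4 in resolution (0.054) and no other member's. A block over inflammation and resolution alone gave 4808 called genes, with 5 members higher and 14 lower, against 3067 for those 2 groups without the block. Only 4 of the 12 libraries correlated best with their own number. Without the filter the median of all genes in resolution against homeostasis moved to 0.17. Low genes such as Ankrd37 and Bnip3l rest on few counts (71 to 175 and 152 to 393 per library).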

Other observations

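Genes that branch off glycolysis were counted as well. Of 10 tested genes of gluconeogenesis and glycogen, 2 fell in inflammation against homeostasis, and 1 rose and 4 fell in resolution, below the 37.2% and 53.3% of all genes called there. Pck2, the mitochondrial enzyme that makes phosphoenolpyruvate, fell in both (edgeR log2 fold change -0.79 ± 0.15, adjusted p = 0.000503, and -1.24 ± 0.16, 2.15e-06). Ugp2, which makes the UDP-glucose used for glycogen, rose in resolution against homeostasis (0.59 ± 0.13, 8e-04) and against inflammation (0.66 ± 0.13, 0.00171).

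Of 8 pentose phosphate pathway genes, 2 rose and 1 fell in inflammation, and 2 rose in resolution, the latter below the share of all genes. Rpe, the ribulose phosphate epimerase, rose in both (0.55 ± 0.15, adjusted p = 0.00741, and 1.17 ± 0.15, 3.2e-06), as did Taldo1, transaldolase (0.58 ± 0.14, 0.00302, and 0.45 ± 0.14, 0.0103). G6pdx, the X-linked gene of the pathway's entry enzyme, fell in inflammation (-0.33 ± 0.12, 0.0336). These lists were chosen with earlier results known, and the comparisons share their homeostasis libraries.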
